A study of Saccharomyces cerevisiae with 4 samples.

Results

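Cytochrome c oxidase, complex IV of the respiratory chain, is built in yeast from subunits of both genomes, and the genes described here are the 9 nuclear ones COX4, COX5A, COX5B, COX6, COX7, COX8, COX9, COX12 and COX13. They were chosen by name and not by a rule on their values, though with earlier results of these data known. They make up 9 of the 6211 open reading frames in the deposited value table. The cells were Saccharomyces cerevisiae BY4741, a haploid strain of mating type a with the genotype his3Δ1, leu2Δ0, LYS2, met15Δ0, ura3Δ0, which treated and vehicle cultures share. Cultures of 50 ml were grown in YPD, a rich glucose medium, at 28 °C to an absorbance of 0.6 and then received b-lapachone at 10 µg/ml in DMSO, or 1% DMSO alone, for 1 h. b-Lapachone is a naphthoquinone that cycles between reduced and oxidised forms in cells, and the series' title names it as a DNA-damaging compound. RNA of a treated and of a vehicle culture was hybridised together on each of 4 two-colour arrays (n = 4 biological replicates, 1 group), with treated RNA in Cy3 on replicates 1 and 3 and in Cy5 on replicates 2 and 4. Ratios hold no level of either culture, so the strain could not be checked against its markers by level.

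The enzyme takes electrons from cytochrome c and passes them to oxygen while pumping protons across the mitochondrial inner membrane. Its catalytic core, Cox1, Cox2 and Cox3, is encoded in mitochondrial DNA, and the nuclear subunits surround that core and are needed for its assembly or tune its activity. Yeast in glucose medium ferments and keeps many respiratory genes partly repressed, and the Hap2-Hap3-Hap4-Hap5 complex, the haem-responsive activator Hap1 and the repressor Rox1 tie their transcription to carbon source, haem and oxygen. BY4741 descends from S288C, in which a Ty1 insertion in HAP1 weakens that activator, which limits the strain as a model of haem control. The 3 core genes COX1, COX2 and COX3, and the small nuclear subunit gene COX26, had no row under their locus tags in the deposited values. They were therefore not analysed here.

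The deposited values were read as log2 ratios of b-lapachone over vehicle, called the log2 ratio below. Base and direction are not stated in the sources used here. Treated over vehicle is assumed, as the usual form of such tables; if the columns ran the other way, every higher and lower below would change places. All 6 pairs of arrays correlated above 0 across genes (r from 0.0966 to 0.485), those of opposite dye orientation included, which says nothing of that direction and bears only on whether the columns hold a fixed ratio of the dyes. In such a table the means would hold dye bias (with the signs of replicates 1 and 3 turned, 1 gene in the whole table was called in place of 155). The arrays gave values for 4819 to 5534 reading frames each, and the 5112 genes with values on at least 3 arrays were tested against 0 with limma and Benjamini-Hochberg adjustment, a gene being called at an adjusted p under 0.05. Precision is limited by the number of arrays: over the genes tested, the standard error of the mean had a median of 0.109. Of the genes that mark a cells, 3 of 6 tested were called lower, where 0.959% of all genes were (BAR1, ASG7 and AGA2, none of them called without replicate 3). The others tested were not called, with means of -0.22 for STE6, -0.11 for STE2 and 0.07 for MFA2. MFA1 was measured on 2 arrays, at -0.91 on replicate 1 and 0.35 on replicate 3. Of the genes that mark alpha cells 0 of 2 were called (0 also at an unadjusted p under 0.05), with MF(ALPHA)1 without a value and STE3 measured on 1 array.

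After 1 h with b-lapachone, transcripts of the nuclear subunits lay mostly below those of vehicle cells, by modest amounts. COX13 and COX5B fell, to mean log2 ratios of -0.61 ± 0.19 (SD, n = 3) and -0.43 ± 0.17 (SD, n = 4), which are 1.52-fold and 1.34-fold lower. COX4 and COX5A had means of -0.38 ± 0.18 and -0.37 ± 0.14 (SD, n = 4 each) and did not pass the test, COX12, COX9 and COX8 lay closer to 0, and COX7 and COX6 had too few values for a test. The 2 falls were among 7 members tested, where 0.959% of all genes tested fell, and no member rose by limma (0 of 7, where 2.07% of all genes tested rose; also 0 of 7 at an unadjusted p under 0.05, where 10.2% of all genes lay higher). Without replicate 1 there were 3 falls (COX4 added), where 0.998% of all genes tested fell. Without replicate 2, 3 or 4 there were none (0 of 7), where 1.06%, 0.117% and 0.293% of all genes tested fell. In these cultures fewer cells with a transcript and less of it per cell cannot be told apart.

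The counts that follow cover all members, the called COX5B and COX13 included. Among those not called, COX4, COX5A, COX7 and COX12 were below 0 on every array that measured them. COX8 and COX9 had values on both sides of 0, and COX6 had none below it. Of the 30 values measured for the 9 genes, 25 lay below 0 (83.3%, against 51.2% of all values in the table). Of the 7 tested members 5 were below 0 on every array that measured them, where 14.4% of all genes tested were, and 4 had an unadjusted p under 0.05 with a mean below 0, where 8.63% of genes were. The median of the 9 means was -0.37, beside -0.01 for all genes tested. By array, the members' median was -0.40 on replicate 1 (9 members), -0.31 on replicate 2 (8 members), -0.28 on replicate 3 (6 members) and -0.27 on replicate 4 (7 members). Among the 5112 genes tested, ordered from the lowest mean, COX13 was number 20, COX5B 81, COX4 117, COX5A 123, COX12 874, COX9 1509 and COX8 2807.

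**Figure D1:**
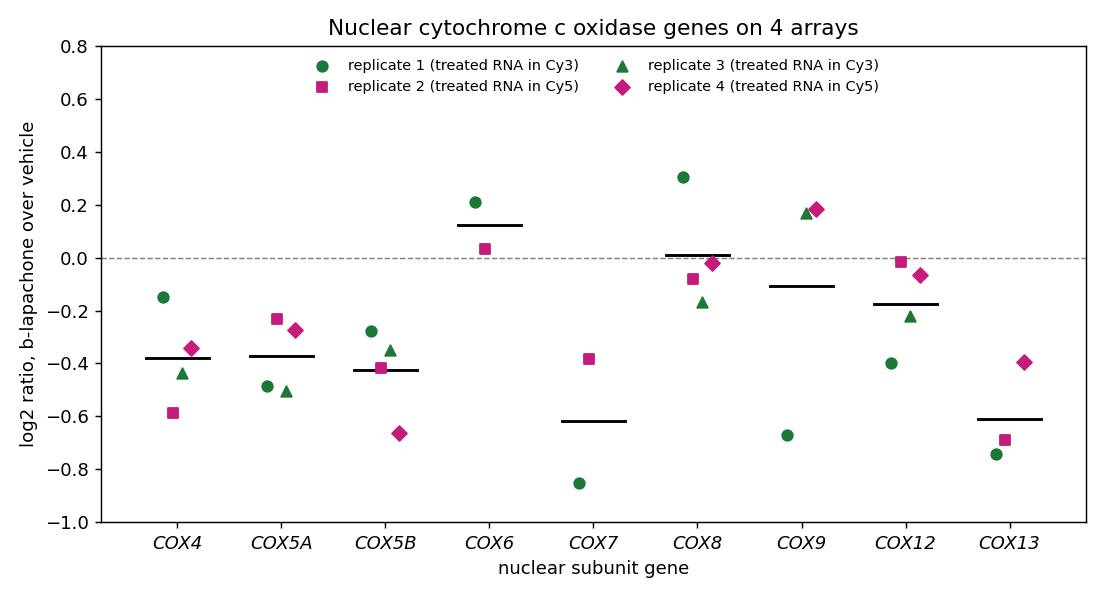
Log2 ratio of b-lapachone over vehicle (vertical axis) for each of the 9 nuclear subunit genes (horizontal axis), with 1 point per array, its shape giving the replicate and its colour the dye of the treated RNA, and a black line at the mean. COX4, COX5A, COX5B, COX7, COX12 and COX13 have all their points below 0, COX6 has both above, and COX8 and COX9 have points on both sides.

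The subunits are taken next by the core subunit they assemble with, an order that gets no test. Cox4, Cox7 and Cox13 join Cox3. COX13 (YGL191W), whose protein is a peripheral subunit that modulates the activity of the enzyme, measured -0.74 on replicate 1, -0.69 on replicate 2 and -0.39 on replicate 4, with no value on replicate 3. All 3 values were well below 0, and the highest of them was still below the mean of COX4. The 95% interval of its mean ran from -0.88 to -0.34 (limma, adjusted p = 0.0259). Because 2 of its 3 values came from arrays with treated RNA in Cy5, a dye effect does not cancel in its mean, and with a dye coefficient the mean was -0.64 (limma, adjusted p = 0.0254). Its call was lost when replicate 2, 3 or 4 was left out (adjusted p = 0.0721, 0.103 and 0.0577); leaving out replicate 3, which did not measure it, changed none of its own values.

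COX4 (YGL187C) encodes a zinc-binding subunit that the enzyme needs for its assembly. It measured -0.15, -0.59, -0.44 and -0.34 on replicates 1 to 4. All were below 0, with the smallest size on replicate 1, and the 95% interval of the mean was -0.61 to -0.15. At an unadjusted p of 0.00373 it did not pass after adjustment (limma, adjusted p = 0.0808), and it did without replicate 1 (mean -0.45, adjusted p = 0.0309) and when arrays were weighted (adjusted p = 0.0283). COX7 (YMR256C), which encodes a small membrane subunit, had values on 2 arrays only, -0.85 on replicate 1 and -0.38 on replicate 2. Their mean of -0.62 was as low as that of COX13, but the gene was not tested; admitted with genes measured on at least 2 arrays, it did not pass (limma, adjusted p = 0.0978).

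Cox5 and Cox6 join Cox1. Cox5 exists as a pair of alternative isoforms: COX5A encodes the form that prevails in aerobic cells and COX5B the form made when oxygen is scarce, each giving a working enzyme. COX5B (YIL111W) measured -0.28, -0.42, -0.35 and -0.66 on replicates 1 to 4. All 4 values were below 0, the lowest on replicate 4, and the 95% interval of the mean was -0.65 to -0.20 (limma, adjusted p = 0.0483). This call lay close to the threshold and was lost with arrays centred on their medians (mean -0.42, adjusted p = 0.058), with genes on at least 2 arrays admitted (adjusted p = 0.0598), and when replicate 2, 3 or 4 was left out (adjusted p = 0.0798, 0.264 and 0.217).

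COX5A (YNL052W) measured -0.49, -0.23, -0.50 and -0.27 on replicates 1 to 4, again all below 0. The 95% interval of its mean was -0.59 to -0.15, and it did not pass (limma, unadjusted p = 0.00309, adjusted p = 0.0724). It passed when a dye coefficient was fitted (adjusted p = 0.0464) or when arrays were weighted (adjusted p = 0.0366). The isoforms were not told apart in size: COX5B minus COX5A was 0.21, -0.18, 0.15 and -0.39 on replicates 1 to 4, with a mean of -0.05 ± 0.28 (SD, n = 4; exact sign-flip permutation test, two-sided p = 0.75, where 0.125 is the smallest p that 4 arrays can give). COX5A was thus the lower of the pair on replicates 1 and 3 and COX5B on replicates 2 and 4, a split that follows the dye of the treated RNA. The genes are paralogues, and how far their probes cross-hybridise was not tested. COX6 (YHR051W), which encodes a subunit needed for assembly of the enzyme, measured 0.21 on replicate 1 and 0.03 on replicate 2 and was not tested. It was the only member with no value below 0.

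The remaining subunits are small proteins. COX12 (YLR038C) encodes a peripheral subunit on the side of the inner membrane that faces cytochrome c, and measured -0.40, -0.02, -0.22 and -0.07 on replicates 1 to 4. All 4 values were below 0, those on replicates 2 and 4 only just, and the mean of -0.18 ± 0.17 (SD, n = 4) had a 95% interval of -0.40 to 0.05 (limma, adjusted p = 0.379), and was -0.10 without replicate 1. COX8 (YLR395C) measured 0.30, -0.08, -0.17 and -0.02. Replicate 1 stood above 0 and the others just below, giving a mean of 0.01 ± 0.21 (SD, n = 4; 95% interval -0.23 to 0.24; limma, adjusted p = 0.973), or -0.09 without replicate 1. COX9 (YDL067C) measured -0.67 on replicate 1, 0.17 on replicate 3 and 0.18 on replicate 4. Its arrays were split between a low replicate 1 and higher others, and its mean of -0.11 ± 0.49 (SD, n = 3; 95% interval -0.47 to 0.26; limma, adjusted p = 0.774) became 0.18 without replicate 1. The interval of COX9 takes in a fall as large as that called in COX5B, and those of COX8 and COX12 end above that size.

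**Figure D2:**
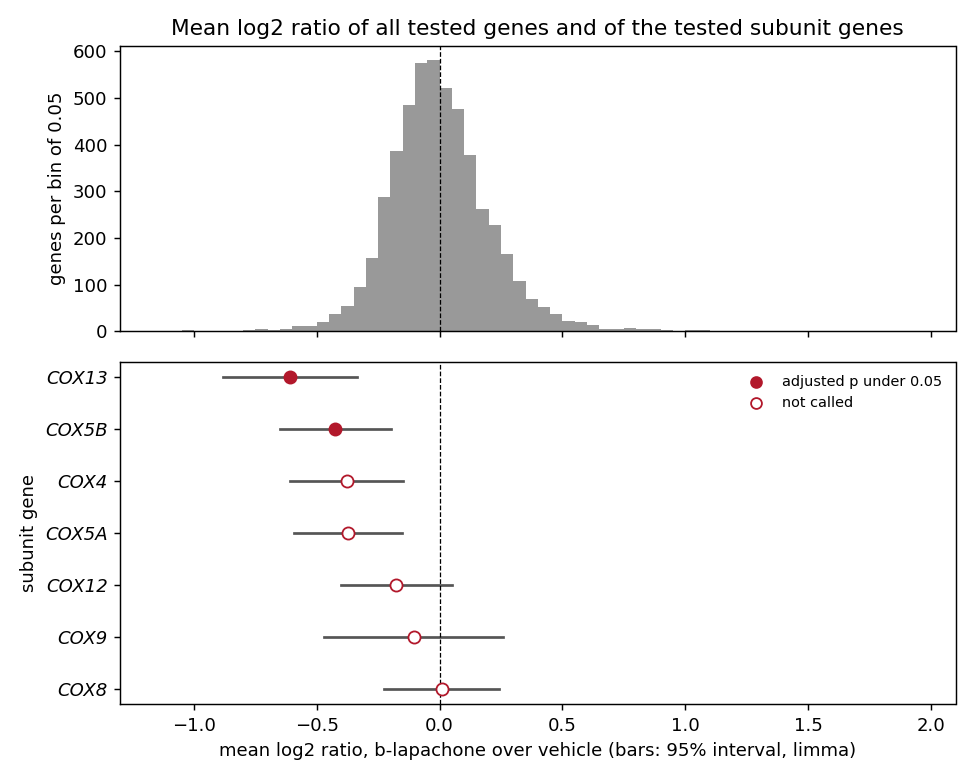
Above, the number of genes per bin of mean log2 ratio for the 5112 genes tested; below, on the same horizontal axis, the mean of each of the 7 tested subunit genes with its 95% interval from limma, filled where called. The intervals of COX13, COX5B, COX4 and COX5A lie wholly below 0, and those of COX12, COX9 and COX8 cross it.

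Replicate 1 held both the lowest and the highest member value of any array, -0.85 for COX7 and 0.30 for COX8, and it was also the array with the widest spread over all genes (SD 0.379, against 0.272 to 0.308 on the others) and the lowest array weight (0.575, against 0.929 to 1.57). A coefficient for the dye of the treated RNA was called in none of the 7 tested members (0 by limma; 0 at an unadjusted p under 0.05; adjusted p from 0.655 to 0.882), where 0.0391% of all genes were called and 9.76% had an unadjusted p under 0.05. Means over the Cy3 and Cy5 arrays were -0.49 and -0.25 for COX5A, -0.31 and -0.54 for COX5B, -0.29 and -0.46 for COX4, and -0.31 and -0.04 for COX12. Each of these genes was below 0 in both orientations, with COX5B and COX4 lower where treated RNA carried Cy5 and COX5A and COX12 lower where it carried Cy3.

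Genes for the synthesis and assembly of the enzyme, which insert haem and copper, translate the mitochondrial core subunits or chaperone them, showed no call. Of 39 listed, 32 were in the table and 29 were tested, and 0 passed in either direction (limma), where 3.03% of all genes did, and 6 had an unadjusted p under 0.05, where 18.8% of all genes did. Their median log2 ratio was -0.04, with 16 means below 0 and 13 above. The largest in size was COA4 (YLR218C), an assembly factor of the intermembrane space, at -0.64, -0.29, -0.60 and -0.13 on replicates 1 to 4. All were below 0, the mean was -0.42 ± 0.25 (SD, n = 4), close to that of COX5B, and the gene did not pass (limma, adjusted p = 0.0724). PET122 (YER153C), an activator of COX3 translation named after its values were seen, lay on the other side at 0.40 ± 0.29 (SD, n = 4; limma, adjusted p = 0.100).

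Beside the 7 tested subunits of complex IV, the bc1 complex with cytochrome c and its maturation enzymes showed 2 falls and no rise among 12 genes tested (0.959% and 2.07% of all genes), with a median of -0.10. These were CYT1 (YOR065W), cytochrome c1, at -1.18 ± 0.28, and QCR2 (YPR191W), a core subunit, at -0.58 ± 0.39 (SD, n = 4 each), so CYT1 had a lower mean than any subunit of complex IV. CYT1 was called whichever replicate was left out, and QCR2 was called only without replicate 2 (adjusted p = 0.0327; 0.0604, 0.266 and 0.0908 without replicates 1, 3 and 4). Succinate and NADH dehydrogenases had 1 of 7 lower, against the same 0.959%, and a median of -0.10. That gene was NDE1 (YMR145C), a mitochondrial NADH dehydrogenase facing the cytosol, at -0.49 ± 0.14 (SD, n = 4; limma, adjusted p = 0.0253), and its call was lost without replicate 3 or 4 (adjusted p = 0.241 and 0.105). In ATP synthase and its regulators 0 of 14 genes were called (limma), where 3.03% of all genes were. At an unadjusted p under 0.05 there were also 0, where 18.8% of all genes passed. The median of this list was -0.13, and ATP5 (YDR298C) had the largest size at -0.23 ± 0.33. In each of these lists, as among the nuclear subunits, more means lay below 0 than above (8 and 4 for the bc1 list, 6 and 1 for the dehydrogenases, 10 and 4 for ATP synthase), where 53.2% of all genes tested had a mean below 0.

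**Figure D3:**
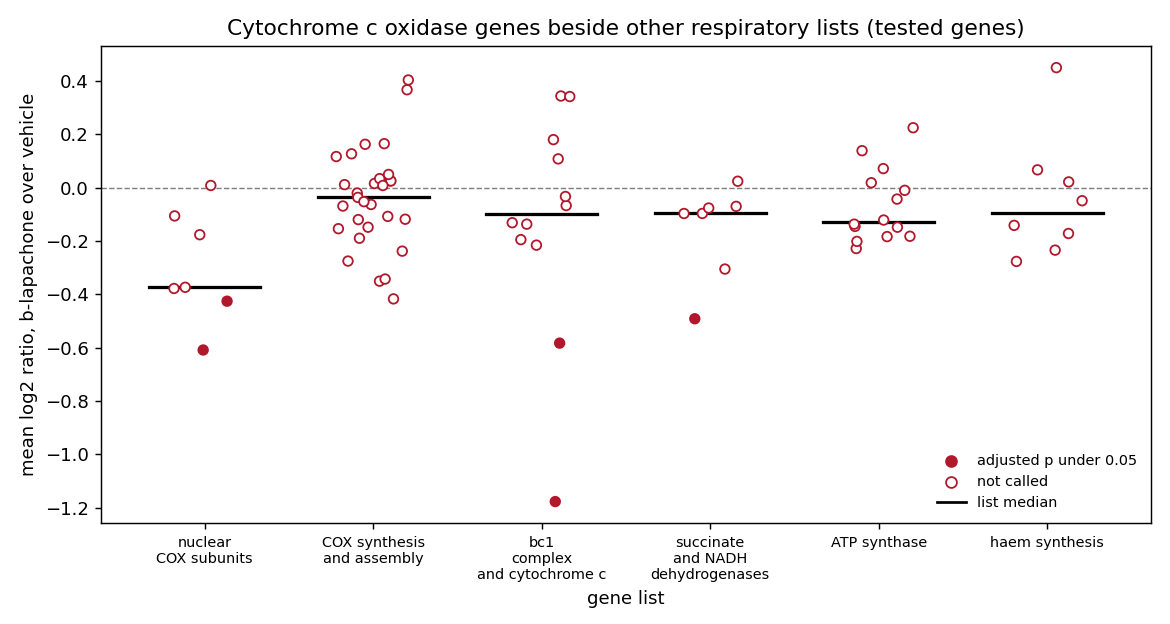
Mean log2 ratio (vertical axis) of each tested gene in 6 lists (horizontal axis), filled where called, with a black line at each list's median. The nuclear subunits have the lowest median, -0.37, the medians of the others lie between -0.13 and -0.04, and the lowest single gene is CYT1 at -1.18.

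Haem is the cofactor of the enzyme's core. Among 8 genes of haem synthesis 0 were called (limma; 3.03% of all genes), 3 had an unadjusted p under 0.05 (18.8% of all genes), and their median was -0.09. HEM1 (YDR232W), which encodes the enzyme of the first step, had the largest size, with 0.25, 0.41, 0.83 and 0.31 on replicates 1 to 4. All were above 0, opposite to the subunits, and the mean of 0.45 ± 0.26 (SD, n = 4) did not pass (limma, adjusted p = 0.0602).

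None of the 9 regulators listed was called either (0 by limma, against 3.03% of all genes; 3 at an unadjusted p under 0.05, against 18.8%; median 0.09). HAP4 (YKL109W), the activating subunit whose amount limits the Hap complex, measured 1.06, 0.35, 0.30 and 0.18 on replicates 1 to 4. It was above 0 on each array, most on replicate 1, and its mean of 0.47 ± 0.40 (SD, n = 4) did not pass (limma, adjusted p = 0.0984). HAP2 (YGL237C), a DNA-binding subunit of the complex, was at 0.35 ± 0.23, HAP1 (YLR256W) at 0.31 ± 0.36 and HAP5 (YOR358W), another subunit, at -0.11 ± 0.06 (SD, n = 4 each), and HAP3 (YBL021C) at -0.14 ± 0.11 (SD, n = 3). Rox1's own gene ROX1 (YPR065W) was at 0.04 ± 0.16 (SD, n = 4), with 0.27 on replicate 1 and between -0.07 and 0.01 on the others. MOT3 (YMR070W), a repressor that acts with Rox1, measured 0.77, -0.21 and -0.02 on replicates 1, 3 and 4, with a mean of 0.18 ± 0.52 (SD, n = 3) that turned to -0.11 without replicate 1. The shared corepressor genes TUP1 (YCR084C) and SSN6 (YBR112C) were at -0.05 ± 0.20 and 0.09 ± 0.27 (SD, n = 4 each).

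COX5B belongs to the hypoxic genes that are kept low in aerobic cells by Rox1 and related repressors. Of 15 hypoxic genes tested, 1 was called lower, COX5B (0.959% of all genes), and 1 higher (2.07%), OLE1 (YGL055W), the fatty acid desaturase, at 0.62 ± 0.16 (SD, n = 4; limma, adjusted p = 0.00673; 0.0723 without replicate 3), and the list's median was -0.14. Means lay below 0 in 11 of the 15 genes, where 53.2% of all genes tested had a mean below 0. Of these, 7, COX5B included, were below 0 on every array that measured them, where 14.4% of all genes tested were. TIR4 (YOR009W), a wall mannoprotein gene named after its values were seen, was at -0.44 ± 0.11 (SD, n = 3, limma, adjusted p = 0.0724). The other pairs of an aerobic and a hypoxic isoform were set beside COX5A and COX5B. For these too, how far the probes of a pair cross-hybridise was not tested. HYP2 and ANB1, which encode the translation factor eIF5A, had means of -0.22 ± 0.09 and -0.19 ± 0.11 (SD, n = 4 each) and were below 0 on every array, without passing the test (limma, adjusted p = 0.248 and 0.310). ANB1 minus HYP2 was 0.19, -0.04, 0.12 and -0.16 on replicates 1 to 4, a split by dye as in the COX5 pair. CYC7, the hypoxic cytochrome c, was at -0.22 ± 0.12 (SD, n = 4; limma, adjusted p = 0.270), and its aerobic partner CYC1 had a single value, -0.48 on replicate 2. PET9 and AAC3, ADP/ATP carriers, were at -0.01 ± 0.19 and 0.21 ± 0.22. HMG1, which encodes a reductase of sterol synthesis, fell to -0.49 ± 0.10 (limma, adjusted p = 0.0208; 0.207 and 0.0635 without replicates 3 and 4), with HMG2 at -0.09 ± 0.27 (SD, n = 4 each). HMG2 lay above HMG1 on each array, by 0.40 ± 0.19 (SD, n = 4; exact sign-flip permutation test, two-sided p = 0.125, the smallest that 4 arrays can give). Adjusted over the 4 pairs tested (Benjamini-Hochberg), these exact p-values were 0.5 for the HMG pair, 0.75 for the carriers, and 0.875 for the COX5 and eIF5A pairs.

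**Figure D4:**
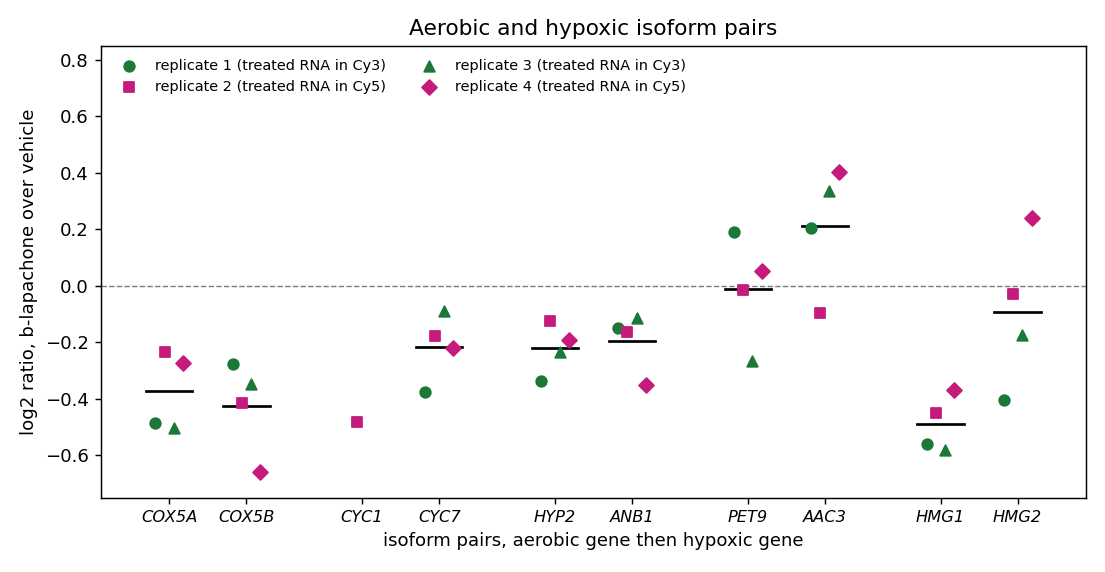
Log2 ratio of b-lapachone over vehicle (vertical axis) for 5 pairs of aerobic and hypoxic isoform genes (horizontal axis), with 1 point per array, its shape giving the replicate and its colour the dye, and a black line at the mean. COX5A and COX5B are both below 0 on every array and overlap. HMG1 is lower than HMG2 on each array, a difference that did not pass the exact test.

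Genes next to the called members on the chromosome were measured only in part. HOS4, beside COX5B, was at -0.08 ± 0.21 (SD, n = 3; limma, adjusted p = 0.779), and HPM1, on its other side, had 0.20 on replicate 2 and -0.20 on replicate 3. Beside COX13, IME4 had a single value, 0.03 on replicate 2, and CDC55 had none. Neither neighbour of COX5B was therefore low on all the arrays that measured it. Among the other 4573 genes with 4 values, those whose ratios lay nearest to COX5B array by array, by root mean square difference, were FIT1, a wall mannoprotein that holds iron carriers (0.0966), UTR2, a wall glycosylase (0.0984), PIL1, a core protein of membrane eisosomes (0.108), SAM3, the S-adenosylmethionine permease (0.127), and SAP4, a partner of the phosphatase Sit4 (0.131). Likeness over 4 arrays only describes these arrays.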

How the data were processed

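The authors deposited a table of 1 value per reading frame and array, taken here as log2 ratios, with scanner, background correction, normalization, log base and direction not given in the sources used here. Columns were matched to samples by accession and to dyes by the labels' titles. Names came from the R64 gene table (5638 of 6211 rows matched by locus tag). No further normalization was applied. A two-sided test of each mean against 0 used limma 3.58.1 under R 4.3.3 (an intercept fitted with lmFit and eBayes) and Benjamini-Hochberg adjustment across the 5112 genes with values on at least 3 arrays (4574 on 4, 538 on 3) and a threshold of 0.05. Nothing was imputed, so a mean covers the arrays that measured the gene. The fit was tested on simulated data with independent noise, no dye effect and the same spread on every array. The measured arrays differ in spread, so that test does not cover their differences. Intervals are 95% intervals of the moderated fit. The arrays are biological replicates per the series' design text.

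The members, gene lists and tests were chosen with earlier results of these data known. Lists get no test. Named genes are all members, the regulators and isoform pairs, the neighbours of called members, the 5 genes nearest COX5B and, per list, up to 4 called genes or the largest. The 15 alternatives were a dye coefficient, 3 rescalings, 2 filters on missing values, a robust prior, unmoderated variance, a 1.2-fold null, array weights, turned signs and each replicate left out.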

Additional observations from a re-analysis of the deposited data

How the results depend on the processing

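Under the alternatives, COX4, COX5A, COX5B, COX12 and COX13 kept means below 0 except with the signs of replicates 1 and 3 turned, where COX5A was at 0.12 and COX12 at 0.13. In that reading COX4, COX5B and COX13 were at -0.09, -0.11 and -0.11 with no call (0 members), COX6, COX7, COX8 and COX9 changed sign to -0.0886, 0.23, -0.0588 and 0.23, the members' median was -0.0588, and 1 gene of the whole table was called. The 2 falls became 1 with centred arrays (COX5B at -0.42, not called), 1 with values on 4 arrays (COX13, with values on 3, not tested) and 1 with values on at least 2 arrays (COX5B at -0.43, not called), 4 with array weights (COX4 at -0.40 and COX5A at -0.38 added), and 0 with unmoderated variance (0 of 5112 genes called; COX5B and COX13 at -0.43 and -0.61) and 0 against a 1.2-fold change (28 genes called). COX5A passed with a dye coefficient (-0.37), as did COX4 (-0.38) with a dye coefficient over genes on 4 arrays, a setting chosen after seeing the data (293 genes called). Array weights called 274 genes in all. COX8 lay below 0 with scaled arrays (-0.00421), quantile normalization (-0.0144) and array weights (-0.0444), and COX9 above 0 with array weights (0.0299).

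Leaving out each replicate in turn gave 0 to 3 falls among the members (3 without replicate 1, 0 without each of the others), 27 to 179 calls in the table (27 without replicate 3 and 67 without replicate 4) and a members' median of -0.35 to -0.31. Means ranged from -0.45 to -0.31 for COX4, -0.42 to -0.33 for COX5A, -0.47 to -0.35 for COX5B, -0.72 to -0.54 for COX13, -0.23 to -0.10 for COX12, -0.0897 to 0.0675 for COX8 and -0.25 to 0.18 for COX9. Each array's ratio already pairs a treated with a vehicle culture, so the test of the mean against 0 was itself paired. The arrays form a single group, with no further pairing to use. Without signal and background values, dim spots could not be told from others.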
